A study of Drosophila melanogaster with 2 samples.

Results

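The genes bun, tara, sbb, Tlk, Svil and kirre are 6 long genes of the fly Drosophila melanogaster that were bound at many sites by the tagged transcription factor Eip93F-GFP. They were chosen by their counts of peaks in these same data, from 13968 protein-coding genes, so those counts are a description and no test was made of them. A peak belonged to a gene when its summit, the position of the highest signal, lay in the annotated gene span or within 5 kb of it. By that rule the 6 genes held 84 of the 3401 summits of the set that the authors found reproducible between replicates. Chromatin was precipitated with an anti-GFP antibody from whole prepupae of mixed sex, which carried an Eip93F gene with a GFP exon inserted in an intron. There was 1 group of 2 biological replicates, and the labels do not say whether these were separate crosses or collections. Whole animals were used, so binding in a few cells and weaker binding in many cannot be told apart. The number of reads behind each peak is unknown, and the signal of a peak, the authors' own value, is comparable only within a list.

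On dm6 (annotation BDGP6), bun lies on the reverse strand of 2L at 12455540 to 12546611, and tara on the forward strand of 3R at 16225651 to 16260329. The gene sbb lies on the reverse strand of 2R at 18278198 to 18357296, and Svil on the forward strand of 3L at 2377655 to 2499226. Both X-linked members are on the forward strand, Tlk at 3720007 to 3789770 and kirre at 2740384 to 3134532. Together they span 790.3 kb, with 71 annotated transcripts and 41 distinct start sites.

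Eip93F encodes E93, a DNA-binding protein induced by the steroid hormone ecdysone, which is known for directing the change from larval to adult tissues during metamorphosis. Transcription factors bind at promoters, next to the start sites of transcripts, and at enhancers, which in long genes often lie in introns. Of the members, bun encodes leucine zipper proteins of the TSC22 family that act in growth and patterning, and tara encodes a protein of the SERTA family linked to the cell cycle, trithorax group genes and sleep. The gene sbb encodes the nuclear corepressor Scribbler, also called Brakeless. Tlk encodes the Tousled-like kinase, which phosphorylates the histone chaperone Asf1. The other two do not encode regulators of chromatin or transcription. Svil is named for supervillin, an actin-binding protein of the villin family, and kirre encodes an immunoglobulin-type adhesion protein that acts in myoblast fusion.

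The windows of 101 bp centred on selected summits are given below, forward strand, from the RefSeq sequence of dm6. For bun, tara, Tlk and kirre the strongest summit is shown, and for Svil the strongest inside the gene. Added are the other 2 bun peaks at its own start sites and the strongest peak in the dense first intron of tara, and the last 3 windows hold a preset sequence word. Capitals mark a preset word, on either strand, and a window without capitals holds none of the 8 words searched. A label with a start site names the one within 500 bp of the summit, and that start site itself lies outside the printed window. No window of sbb is shown.
bun, start site of transcript bun-RC, chr2L:12461519-12461619: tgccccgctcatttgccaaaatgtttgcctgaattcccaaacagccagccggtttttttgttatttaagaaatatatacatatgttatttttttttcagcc
bun, start site of bun-RB, chr2L:12483944-12484044: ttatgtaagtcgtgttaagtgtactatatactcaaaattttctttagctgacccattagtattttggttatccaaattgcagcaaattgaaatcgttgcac
bun, start site of bun-RH, chr2L:12493717-12493817: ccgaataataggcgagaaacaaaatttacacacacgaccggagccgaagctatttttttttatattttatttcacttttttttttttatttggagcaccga
tara, upstream, chr3R:16222435-16222535: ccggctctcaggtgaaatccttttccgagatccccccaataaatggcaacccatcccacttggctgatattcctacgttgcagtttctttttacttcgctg
tara, first intron, chr3R:16236946-16237046: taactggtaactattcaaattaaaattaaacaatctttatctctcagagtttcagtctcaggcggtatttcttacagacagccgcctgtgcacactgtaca
Tlk, intron, chrX:3742154-3742254: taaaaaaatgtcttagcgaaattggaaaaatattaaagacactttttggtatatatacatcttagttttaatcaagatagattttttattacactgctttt
Svil, start site of Svil-RAA, chr3L:2494319-2494419: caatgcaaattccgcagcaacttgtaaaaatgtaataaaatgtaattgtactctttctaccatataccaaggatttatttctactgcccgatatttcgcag
kirre, intron, chrX:3053425-3053525: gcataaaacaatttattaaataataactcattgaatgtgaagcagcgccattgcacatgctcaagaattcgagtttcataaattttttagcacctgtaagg
bun, intron, GATA word, chr2L:12475373-12475473: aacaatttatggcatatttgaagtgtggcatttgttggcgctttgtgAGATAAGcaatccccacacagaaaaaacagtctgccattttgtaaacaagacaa
tara, first intron, E-box, chr3R:16231489-16231589: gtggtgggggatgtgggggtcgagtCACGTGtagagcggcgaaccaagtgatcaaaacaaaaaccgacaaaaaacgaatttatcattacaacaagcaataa
tara, intron, AP-1 word, chr3R:16253772-16253872: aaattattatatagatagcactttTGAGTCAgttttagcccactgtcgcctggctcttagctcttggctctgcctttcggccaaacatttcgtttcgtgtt

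Summit counts were first set beside gene length, since a longer span can hold more summits. A summit in the span or within 5 kb was found for 34.7% of all protein-coding genes, and 12 or more summits for 0.0859% of them, or 12 genes, of which 6 are the members. The other 6 were Glut4EF, CG46467, Eip75B, tai, shn and Raf. Glut4EF and CG46467, both on 3R, each held 22 summits and may share them, so the 12 genes need not be separate loci. The counts were 16 for bun, 15 for tara, 14 for Tlk, 14 for Svil, 13 for sbb and 12 for kirre. Length differed far more than the counts did. The span was 34.7 kb for tara and 394.1 kb for kirre. The gene tara held 0.336 summits per kb and ranked 1 of the 670 protein-coding genes of 30 kb or more. Tlk held 0.176 per kb (rank 6), bun 0.158 (rank 13), sbb 0.146 (rank 18) and Svil 0.106 (rank 31). With 0.0297 per kb kirre ranked 183, and 72.7% of the long genes had a lower density. The median of those 670 genes was 0 summits, because 51.2% of them held none.

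**Figure D1:**
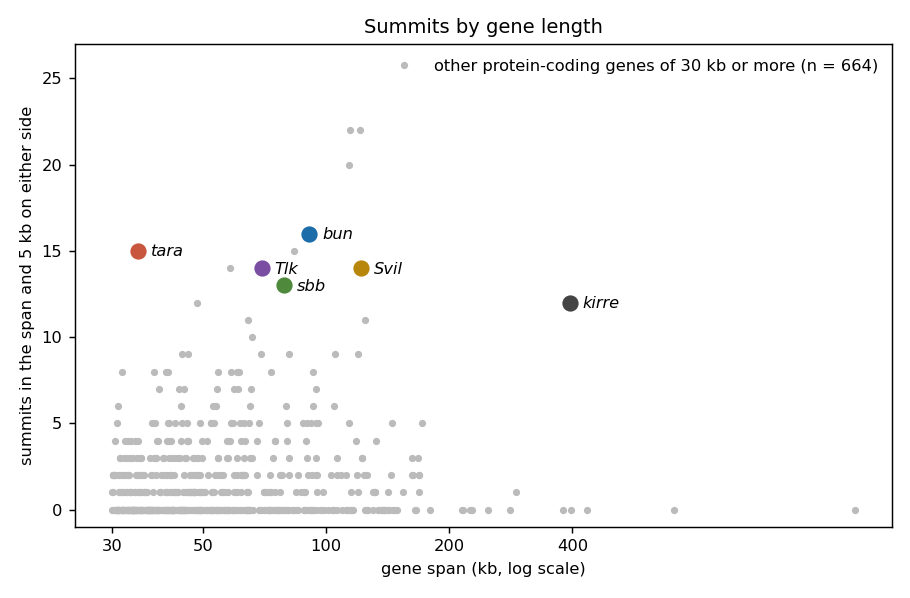
Gene span (kb, log scale) against the number of summits in the span and 5 kb on either side, 1 point per protein-coding gene of 30 kb or more. The 6 named genes hold 12 to 16 summits over spans of 34.7 to 394.1 kb, and most of the grey points lie at 0 to 5.

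The density was then taken from each replicate alone, using as many leading entries of its own list (3401) as the reproducible set has. The gene tara held 16 summits in replicate 1 and 14 in replicate 2, or 0.358 and 0.313 per kb. Tlk held 16 and 12, sbb 15 and 13, and kirre 12 and 11. Svil held 11 in each. The gene bun differed most between replicates, with 14 summits in replicate 1 and 20 in replicate 2. In both replicates tara had the highest density of the 6 and kirre the lowest. The order of bun, Tlk and sbb in between changed, with Tlk second in replicate 1 (0.201 per kb) and bun second in replicate 2 (0.198 per kb).

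**Figure D2:**
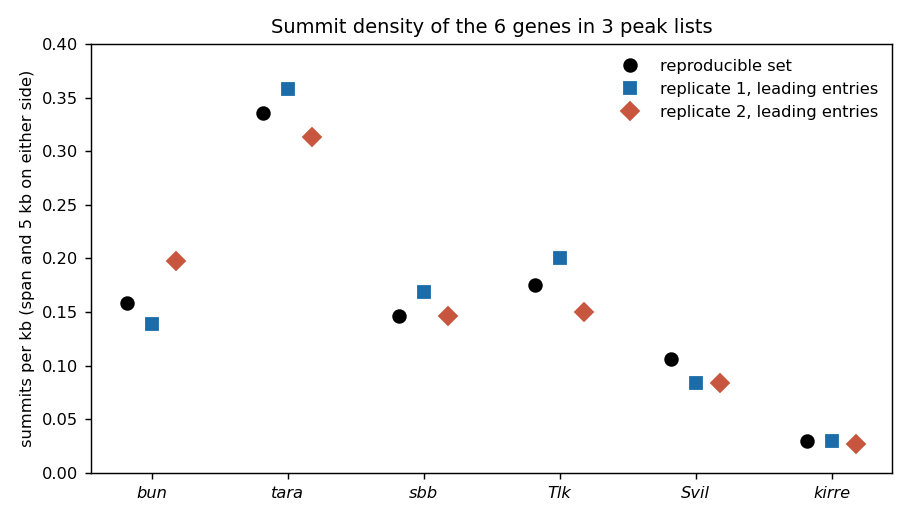
Summits per kb of span and 5 kb on either side, for each gene in the reproducible set and in the leading 3401 entries of each replicate. The 3 points of tara, from 0.313 to 0.358, lie above those of every other gene, and those of kirre, from 0.0272 to 0.0297, below.

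Each summit was looked up in the replicates' own full lists of 30000 entries, which include background. All 84 lay inside an entry of replicate 1 and 83 inside one of replicate 2, and 98.0% of all 3401 summits lay in both. Among the leading 3401 entries, 73 of the 84 (86.9%, Wilson 95% interval 78.1 to 92.5%) were found in replicate 1 and 69 (82.1%, 72.6 to 88.9%) in replicate 2. Of all summits, 81.7% were found in that list of replicate 1 and 80.1% in that of replicate 2, shares inside these intervals. Both leading lists held 58 of the 84 (69.0%, 58.5 to 77.9%), against 64.2% of all summits, a share inside that interval. The reproducible set was made from reads of both replicates, so these shares are not an independent repeat. The order of the signals was shared in part. Over the 83 summits matched in both, Spearman's rho between the replicates was 0.476, beside 0.488 over the 3332 matched summits of the whole set. These are correlations across sites of the same 2 libraries, and the sites were selected on the pooled signal.

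**Figure D3:**
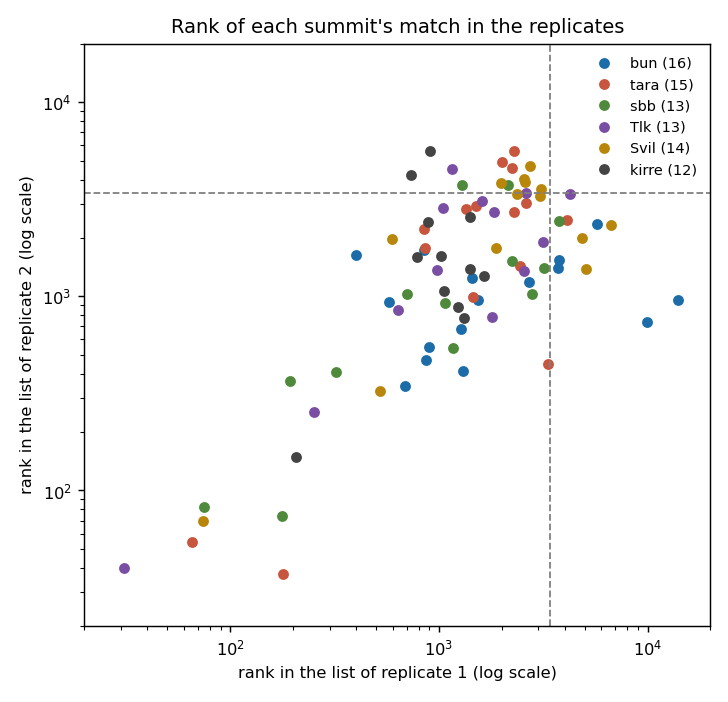
Rank of the entry that holds each summit in the list of replicate 1 and of replicate 2 (log scales, 1 is the strongest), with dashed lines at rank 3401. The summits with ranks under 210 in both replicates belong to tara, sbb, Tlk, Svil and kirre. In bun, 2 summits have ranks of 9939 and 13998 in replicate 1 with ranks under 1000 in replicate 2. The summit at 13998 shares its replicate 2 entry with a stronger neighbour.

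The peaks of these genes were mostly intronic and away from start sites. Of the 84 summits, 62 (73.8%, Wilson interval 63.5 to 82.0%) lay in introns more than 500 bp from any start site, against 39.0% of all 3401 summits. Within 500 bp of a start site of any gene lay 20 (23.8%, 16.0 to 33.9%), against 47.1% of all summits. The remaining 2 (2.38%) were intergenic, against 10.8% of all summits. Of the bases counted here (span and 5 kb on either side), 74.0% are likewise intronic and away from start sites, close to the share of summits. Bases within 500 bp of a start site made up 11.9%, below the share of summits there. Intergenic bases made up 1.965%. In other genes of 30 kb or more, 569 of 939 summits (60.6%) were intronic and 306 (32.6%) near a start site. Exons away from start sites made up 12.1% of the bases and held 0 of the 84 summits, against 3.12% of all summits. A count of 0 allows a share of up to 3.57% by the limit of 3 counts in 84, with a Wilson upper bound of 4.37%. The share of all summits lies below both limits, and the 12.1% of the bases lies above both.

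Only part of the start sites carried a peak. Of the 41 start sites of the members, 11 (26.8%, Wilson interval 15.7 to 41.9%) had a summit within 500 bp, against 11.7% of the start sites of all protein-coding genes. This share depends on the distance allowed. Within 250 bp it was 5 of 41 (12.2%, 5.32 to 25.5%), against 8.52% for all protein-coding genes, a share inside that interval. Within 1000 bp it was 15 of 41 (36.6%, 23.6 to 51.9%), against 15.3%, a share outside that interval. The members were chosen for many summits, so the share at their start sites is not independent of that choice. Svil had 4 of 16 start sites with a summit, bun 3 of 7, Tlk 2 of 8, tara 1 of 2, sbb 1 of 2 and kirre 0 of 6. At 9 of the 11 (81.8%) the summit lay upstream of the start site, and at the 2 of Tlk it lay downstream. Over all 1499 summits at a start site of a protein-coding gene, 76.2% lay upstream. A further 9 summits of the members lay within 500 bp of a start site of another gene only.

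**Figure D4:**
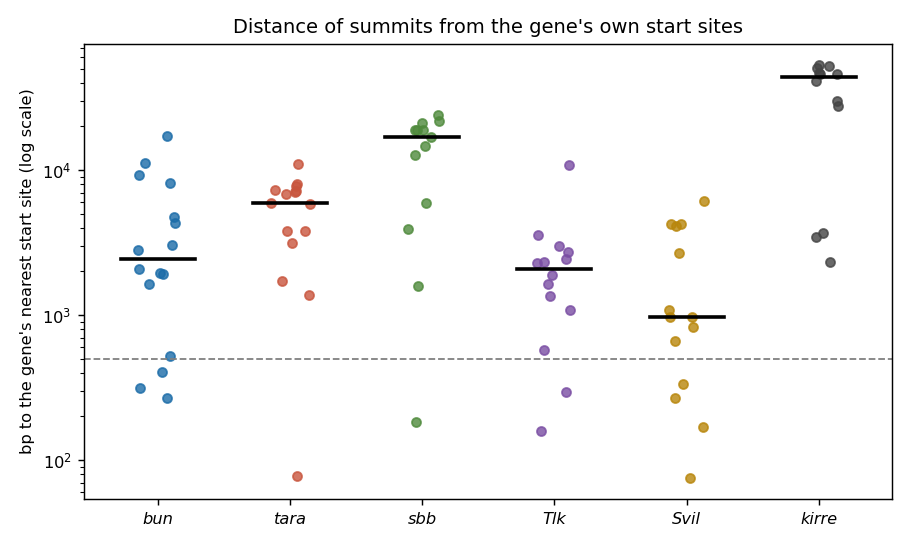
Distance in bp (log scale) of each summit from the nearest start site of the gene it is counted for, with a bar at the median and a dashed line at 500 bp. The medians run from 967 bp in Svil to 43570 bp in kirre, and no kirre summit lies under the line.

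Along the gene, bun carried moderate peaks spread over most of its length. Its 16 summits had signals from 92.5 to 228 with a median of 165, against 129 for the whole set, and all lay in introns. They fell in 7 of its 12 intron segments (stretches that no bun transcript uses as exon), with at most 4 in one. The peak at the start site of bun-RC, the start site nearest the 3′ end of the gene, was the strongest (signal 228, summit 12461569, 313 bp upstream, ranks 689 and 344 in replicates 1 and 2). The start sites of bun-RB and bun-RH had summits 405 bp upstream (signal 209.5, ranks 401 and 1632) and 270 bp upstream (signal 206, ranks 870 and 473). The most upstream start site, used by bun-RA, bun-RF and bun-RG, had its nearest reproducible summit 16940 bp away. Replicate 2 had an entry 153 bp from it at rank 3114, inside its leading list, and replicate 1 had no entry of any rank within 500 bp. In the pooled reads the nearest entry ranked 6709. All 16 summits were in the leading list of replicate 2, in 15 entries, since those at 12459348 and 12459612 shared the entry of rank 956. The leading list of replicate 1 held 11 of the 16. Of the 5 others, those at 12459612 and 12507884 ranked 13998 and 9939 in replicate 1, and their peaks overlapped that of a stronger neighbour.

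In tara, the peaks were packed into the first intron. This intron runs from the exon of tara-RA to the start site of tara-RB, 16226440 to 16242815. It makes up 47.2% of the span and held 11 of the 15 summits, or 0.672 per kb. The 11 include 2 pairs of overlapping peaks, those at 16234793 and 16235051 and those at 16235772 and 16236009. They need not be separate sites. The second intron, 13448 bp long, held 2. Most of these peaks were modest, and the median signal over the gene was 122. There were 2 strong exceptions. One lay upstream of the gene, 3166 bp from the start site of tara-RA (signal 519, summit 16222485), and 910 bp from the nearest start site of any gene. It ranked 53 in the reproducible set, 66 in replicate 1 and 54 in replicate 2. The other lay in the first intron (signal 459, summit 16236996), with ranks of 179 and 37. The start site of tara-RB had a summit 78 bp upstream (signal 109), and no list held an entry of any rank within 500 bp of that of tara-RA. Neighbouring summits of tara were 1627 bp apart in the median and 5 of 14 gaps were 1000 bp or less.

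In sbb, the strongest peak lay at the start site of most transcripts and the other 12 in introns. The summit 182 bp upstream of the start site shared by 5 of 7 transcripts reached a signal of 473, ranking 75 and 82 in the replicates. The other start site had its nearest summit 1590 bp away. The first intron segment, 49364 bp or 62.4% of the span, held 9 of the 13 summits. In it, the summit at 18338502, 18794 bp from the start site, reached a signal of 409 (ranks 177 and 74), and that at 18307571 reached 313 (ranks 193 and 367). The peak of the latter overlapped the peak of its neighbour at 18307782. The median signal of sbb, 167, was the highest of the 6 genes, and its replicates had the closest order of signals (Spearman's rho 0.786 over 13 summits).

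Tlk held the strongest single peak of the 6 genes. Its summit at 3742204 had a signal of 644 and ranked 33 in the reproducible set, 31 in replicate 1 and 40 in replicate 2. It lay 2307 bp downstream of the start site of Tlk-RK, in an intron segment of 6958 bp (3740205 to 3747162). That segment made up 9.97% of the span and held 6 of the 14 summits, or 0.862 per kb. The longest intron segment of Tlk, 15025 bp just upstream of it, held 0. The other summits of the dense segment had signals from 101 to 185. Its summit at 3744726 was the only one of the 84 without an entry in replicate 2 at that position, with a rank of 922 in replicate 1. The peak of that summit overlapped the peak of its neighbour at 3744459. A second strong intronic summit lay near the 3′ end of the gene, at 3778261 (signal 311, ranks 253 and 255). Both summits at Tlk start sites were in exons, 160 bp downstream of the start of Tlk-RI (signal 156) and 295 bp downstream of that of Tlk-RC (signal 133).

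Svil had many start sites and weak peaks. The median signal of its 14 summits, 109, was the lowest of the 6 genes and lay below the 129 of the whole set. Its strongest summit, 2373568 (signal 498, ranks 74 and 70), lay 4087 bp upstream of the gene and 67 bp from a start site, within 500 bp of those of mRpL23, a mitochondrial ribosomal protein gene, and CG9004. Inside the gene the strongest was 169 bp upstream of the start site of Svil-RAA, at 2494369 (signal 252, ranks 524 and 324). The start site shared by Svil-RQ, Svil-RR, Svil-RS and Svil-RU had a summit 269 bp upstream (signal 172, ranks 599 and 1983). Those of Svil-RG, Svil-RH, Svil-RK and Svil-RW, and of Svil-RM, had weaker ones 75 bp (signal 111) and 337 bp (signal 95.4) upstream. Of the 14 summits, 6 were in the leading lists of both replicates, the fewest of the 6 genes. With 967 bp in the median, its summits were the nearest to its own start sites.

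In kirre, the summits were few for the length of the gene and far from its start sites. No start site had a summit within 500 bp, and the nearest was 2319 bp from that of kirre-RC. The median distance was 43570 bp. Of the 12 summits, 6 lay in a single intron segment of 70622 bp (2995489 to 3066110), which makes up 17.9% of the span. It held the strongest peak, its summit at 3053475 (signal 357, ranks 207 and 148). The 2 longest segments, 121519 and 105464 bp, held 3 and 1, all at or in other genes. Those of the longest lay 177 bp from the start site of Syx4 (2744253) and inside the span of CG32795 (2786749 and 2787444). The 1 in the other lay 179 bp from the start site of CG3603 (2947855). A stretch of 160411 bp between neighbouring summits held none. The lowest signal of kirre, 126, was well above the lowest of the other 5 genes, from 91.4 to 95.6. All 12 summits were in the leading list of replicate 1 and 10 in that of replicate 2. Between the replicates their signals had a Spearman's rho of -0.161 over 12 summits, the lowest of the 6 genes.

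**Figure D5:**
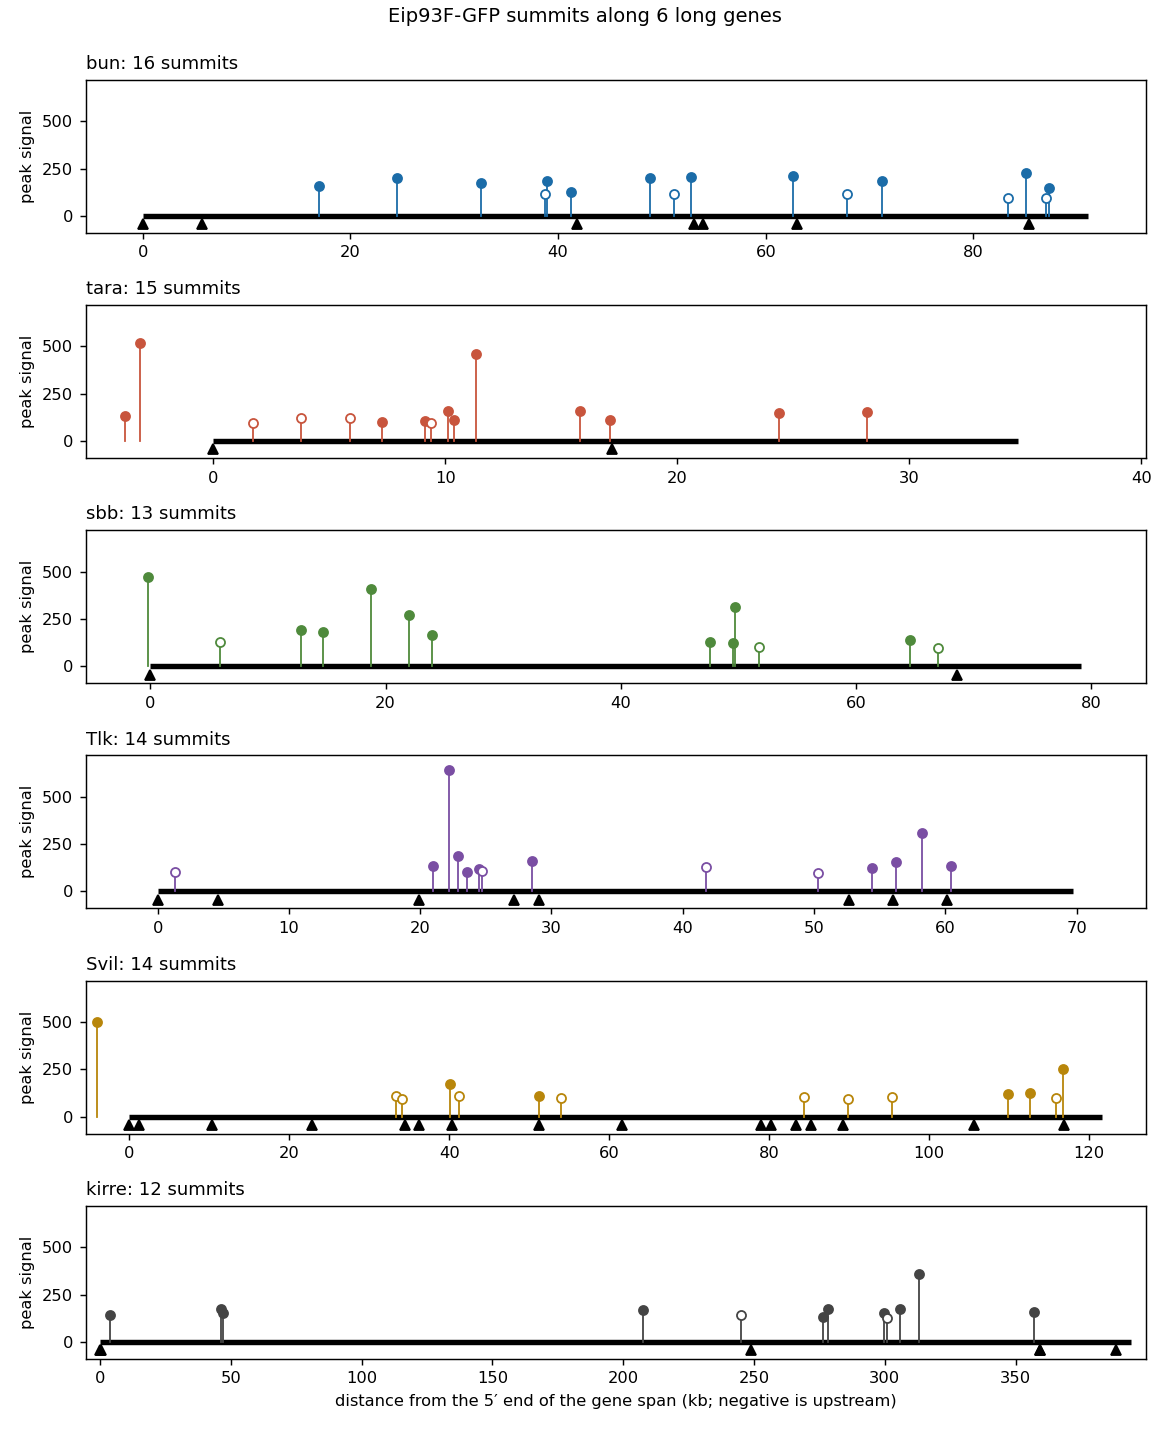
Signal of each summit against its distance in kb from the 5′ end of the gene span, with the gene as a black bar and its start sites as triangles. Filled circles are in the leading lists of both replicates and open ones in 1 of them. The first intron of tara and the 6958 bp segment of Tlk stand out as dense groups, and the strongest peaks of tara, sbb and Svil lie upstream of the gene.

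At the edge of the 5 kb rule, 4 summits lay inside it but outside a gene span. They were those of tara at 3166 and 3786 bp, that of sbb at 182 bp and that of Svil at 4087 bp. The nearest summits left out lay 7085 bp from bun, 8273 bp from sbb, 12645 bp from kirre, 15560 bp from tara, 24446 bp from Tlk and 53483 bp from Svil. The lowest signal counted was 91.4, in Svil, and the highest entry of the pooled reads in a member that was left out of the reproducible set had 88.5, in kirre.

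Sequence words were counted within 50 bp of the summits, on both strands. The words AGATAAG and TGATAAG, recognised by GATA factors, were found at 1 of the 84 summits (1.19%, Wilson interval 0.211 to 6.44%), against 6.73% of all summits. The 1 was the bun window at 12475423 printed above. In windows of the same size 500 bp to either side the share was 3.57% for the members and 3.31% for all summits. The E-box CACGTG was found at 1 summit, in the first intron of tara, against 1.00% of all summits. The AP-1 word TGANTCA was found at 1, in the second intron of tara, against 2.53%. Of the other words, the GAGA factor word GAGAGAG was at none of the 84, against 2.18% of all summits. The nuclear receptor word AAGGTCA was at none, against 0.588%. Likewise the Zelda word CAGGTAG was at none, against 0.470%. The DREF word TATCGATA was at none, against 0.647%. The 6.73% of all summits with a GATA word lies just above the members' interval, and for the other words the share of all summits lies inside it. At these counts a difference is hard to detect, and none was tested. With 100 bp to either side the GATA share was 7.14%, against 12.0%. The GC content of the windows was 35.1% in the median for the members and 34.7% for all summits.

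The long gene with the most similar densities over the reproducible set and both replicates (smallest Euclidean distance over these 3 values, in summits per kb) was brat for bun (0.0198), ush for sbb (0.0170) and msn for Tlk (0.0233). For Svil it was Nuak (0.0131) and for kirre fz (0.00203), which had 3 summits in each list over 94297 bp. No long gene was near tara. The closest, Raf, was 0.226 away, with 0.206 summits per kb against 0.336 for tara.

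Genes known to work with the members or related to them held peaks in 5 of 13 cases, or 38.5%, near the 34.7% of all protein-coding genes. With the gene span alone the count was 4, and from the leading lists of replicates 1 and 2 alone it was 5 and 6. Gug, which encodes the corepressor Atrophin that acts with sbb, held 5 summits, the strongest in an intron (signal 298, ranks 252 and 357). Among genes of myoblast fusion, mbc held 3 summits (strongest signal 149), rols 1 (151) and blow 1 (99.7). The adhesion gene rst, a relative of kirre that lies inside the kirre span, had 1 summit (2947855, signal 170), 2544 bp outside its own span. That summit is also counted for kirre and lies 179 bp from the start site of CG3603. The bun partner Madm, CycA, which acts with tara, the sbb partner tll, the Tlk substrate asf1, the villin family genes Gel and qua, and the fusion genes sns and hbs held none. The leading list of replicate 2 held 1 at CycA and 1 at Gel, and that of replicate 1 held 1 at qua.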

How the data were processed

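Chromatin immunoprecipitation and sequencing was done on 2 biological replicates of 1 group. The notes deposited with the files describe peak lists on dm6 made by the authors from the alignment of each replicate, or of both pooled, against a control file. They also name the reproducible set, made from these lists by the irreproducible discovery rate. Each list of a replicate holds 30000 entries. The authors deposited a signal per peak, from their peak caller, and a −log10 (q) value. In the 84 summits the q values ran from 0.000943 to 0.0323. For the aligner, the peak caller, their versions and the depth, nothing is stated in the sources used here. The dm3 lists were not used.

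Summits (start plus the deposited offset, written from 1) were placed on Ensembl release 115, without transposable elements, with Python 3.11.15, numpy 2.4.6 and scipy 1.17.1. A match in a replicate is the best-ranked entry that contains the summit. Neighbouring summits can thus share an entry, as in bun in replicate 2 and in tara in replicate 1. Intron segments are stretches of the span in no exon of the gene. Intervals are Wilson intervals at 95% and cover counting error only. No test was made, since the members and lists were chosen with earlier results of these data known. Named were the 6 genes, their preset partners and relatives, genes with a start site or exon at a summit, and the most similar long gene for each. The other genes with 12 or more summits, and CG32795, were named after their values had been seen. The functions were tested on simulated data.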

Additional observations from a re-analysis of the deposited data

How the results depend on the processing

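The counts of summits per gene moved by no more than 1.5 times with the gene span alone or with 1 or 10 kb on either side. The 1700 peaks of highest signal are 49.99% of all 3401, so lower counts follow from the cut itself. They held 48 of the 84 member summits (57.1%, Wilson interval 46.5 to 67.2%), and the 49.99% lies inside that interval. Among them the counts were 10 for bun, 7 for tara, 8 for Tlk and 3 for Svil. Each of these is more than 1.5 times below that of the full set. The counts of sbb (9) and kirre (11) fell by less. From 1 replicate alone the counts ran from 14 to 20 for bun, 14 to 16 for tara, 13 to 15 for sbb, 12 to 16 for Tlk, 11 to 11 for Svil and 11 to 12 for kirre. The share of summits near a start site was 11.9% with 250 bp, 34.5% with 1000 bp and 13.1% with the start sites of the member alone, and ran from 26.2 to 30.9% from 1 replicate. The share of start sites with a summit was 12.2% with 250 bp and 36.6% with 1000 bp. The intronic share was 84.5% with 250 bp and 64.3% with 1000 bp. With overlap of peaks by 1 bp, 100% were found in the full list of replicate 2. With reciprocal overlap by 50 percent of each peak, 94.05% were found in the full list of replicate 1 and 91.7% in that of replicate 2. The median signal of the members was 1.063 times that of all summits, and 1.081 to 1.085 times in the replicates' own lists. The GATA share was 7.14% with 100 bp. With GATAAG after any base, a word chosen after the data had been seen, it was 3.57%, against 10.03% of all summits. That share of all summits lies just above the Wilson interval of the members, 1.22 to 9.98%. The causes were not tested. No paired analysis was possible because there is 1 group. The depth of the libraries is unknown.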

Other observations

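Several member summits stand at start sites of genes nested in or beside the member. In bun, a weak summit lay within 500 bp of the start site of the microRNA gene mir-967 (12459612, signal 93.3, ranks 13998 and 956). Its replicate 2 entry is shared with a stronger neighbour. Another summit lay within 500 bp of the start site of t-cup (12497782, signal 202, ranks 575 and 937). Within 500 bp of those of CG43051 and its small nucleolar RNA lay the summits at 12507664 (signal 184, ranks 1278 and 676) and 12507884 (signal 116, ranks 9939 and 739). In sbb, which holds 8 nested protein-coding genes, one lay 360 bp from the start site of CG14502 and in its exon (18292693, signal 140). In Svil, one lay 95 bp from that of CG1146 (2490315, signal 125). In kirre, which holds 21 nested protein-coding genes, summits lay 177 bp from the start site of Syx4, a syntaxin gene (2744253, signal 139), and 179 bp from that of CG3603.

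Each replicate had leading entries in the members that were not in the reproducible set, 10 of 84 in replicate 1 and 11 of 81 in replicate 2. The same share over all leading entries is not given here, so these counts are not read as a trait of the members. In the other direction, 81.7% and 80.1% of all 3401 reproducible summits lay in the leading lists of replicates 1 and 2. One of the member entries outside the set lay 129 bp from the start site shared by Svil-RAB, Svil-RAE and Svil-RAF. It had rank 2980 in replicate 2, where replicate 1 had an entry at rank 15139.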
